A study of Mus musculus with 4 samples.

Results

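The 36 genes described here encode the enzymes and one transporter that put sialic acid on glycans, take it off, build the core of gangliosides and branch or extend glycan chains, and they were followed in cultured mouse astrocytes after an shRNA against Phf8. They were taken from the deposited files by gene symbol, and all 36 were found among 55421 listed genes. The set was proposed because Neu4 and Gcnt4 were among the largest increases when cells with Phf8 shRNA were set against those with control shRNA, so the values of that comparison describe these genes and test nothing about them as a group. Where a member is said to pass, rise or fall, this gives only its side of an adjusted p of 0.05 in the fit across all genes, Neu4 and Gcnt4 included, and its p-value is not printed.

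RNA was sequenced from astrocytes made in culture by differentiating neural stem cells of strain C57BL/6J in medium with fetal bovine serum. The shPHF8 group had been infected with lentivirus carrying an shRNA specific for PHF8 (2 libraries), and the shctr group with lentivirus carrying a control shRNA (2 libraries), so a lentivirus and a hairpin are common to both groups. Phf8 encodes a histone demethylase. The libraries held 44724759 and 36839530 reads in genes with Phf8 shRNA and 42245602 and 40472627 with control shRNA. Levels are given as CPM, reads of a gene relative to all reads of its library, after TMM scaling (trimmed mean of M-values), and a fold change is Phf8 shRNA over control shRNA. Phf8 itself stood at 44.3 and 42.3 CPM in Phf8 shRNA libraries and at 53.3 and 53.0 CPM in control shRNA libraries, a log2 fold change of -0.30 ± 0.06 (SE) with a Benjamini-Hochberg adjusted p of 1.72e-06 (quasi-likelihood F test of edgeR). The share of reads from mitochondrial ribosomal RNA was 27.8% and 28.2% with Phf8 shRNA and 21.2% and 22.5% with control shRNA.

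Sialic acid is an acidic sugar that caps the outer ends of glycans on proteins and lipids. It is activated to a nucleotide sugar, carried into the Golgi and transferred by sialyltransferases, which are named for the bond they make and for the sugar they attach it to, and sialidases (neuraminidases) remove it again. Gangliosides are glycolipids that carry sialic acid and are abundant in the membranes of neural cells, and polysialic acid, a long chain of it on the adhesion molecule Ncam1, is known from migrating and immature neural cells.

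The labelled cell type was checked against marker genes. The 10 astrocyte markers were present in each library, with a summed level of 7303 and 6560 CPM in Phf8 shRNA libraries and of 9854 and 9602 CPM in control shRNA libraries. Of the 10, 3 rose and 6 fell. Slc1a2, a glutamate transporter gene, rose to 968 and 982 CPM with Phf8 shRNA, against 136 and 135 CPM with control shRNA, and Glul, the glutamine synthetase gene, and Gja1, a connexin gene, rose 2.22-fold and 1.27-fold. Gfap, the astrocytic intermediate filament, fell (1319 and 1024 CPM with Phf8 shRNA, 4079 and 3863 CPM with control shRNA), as did the water channel gene Aqp4 (582 and 482 CPM with Phf8 shRNA, 1323 and 1351 CPM with control shRNA). Of 14 tested markers of the oligodendrocyte lineage, 13 rose and 0 fell, and the summed level of the 15 listed was 1421 and 1365 CPM with Phf8 shRNA and 831 and 786 CPM with control shRNA. Mbp, the myelin basic protein gene, was at 32.4 and 29.3 CPM with Phf8 shRNA and at 6.38 and 5.87 CPM with control shRNA, and Gpr17, a receptor gene of premyelinating cells, at 271 and 258 CPM with Phf8 shRNA and at 86.0 and 79.1 CPM with control shRNA. Of 8 tested neuron markers 7 rose and 0 fell. The summed level of the 10 listed was 1900.9 and 1896.1 CPM with Phf8 shRNA and 1155.9 and 1195.5 CPM with control shRNA. Of 5 ependymal markers 5 fell (summed level 46.9 and 43.8 CPM with Phf8 shRNA, 218 and 209 CPM with control shRNA). Of the progenitor markers 2 of 5 rose and 2 fell. Microglial and fibroblast markers had summed levels under 4 CPM in each library, with C1qa at 0, and 0 passed, while 1 of 6 tested endothelial and mural markers rose and 3 fell at a summed level of 25.8 to 26.0 CPM, with Cdh5 at 0. The part of these shifts in the values below was not tested. In bulk RNA, fewer cells of a type and less RNA per cell cannot be told apart.

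Among the 36 genes, 12 were higher and 12 were lower with Phf8 shRNA at an adjusted p under 0.05, 10 did not pass, and 2, St8sia6 and Neu2, were under the low-count filter. Over the 21042 genes tested across the genome 24.8% were called higher and 27.3% lower, 52.1% in all. Of the 14109 protein-coding genes among them, 3553 were higher and 4965 lower, 60.4% in all. Nothing is read from the count of members, in all or by role, against these shares. With upper-quartile scaling in place of TMM the split was 17 higher and 11 lower members, and 6640 higher and 4811 lower genes in all, against 5225 and 5740 with TMM. St3gal4, St6galnac3, Cmas, B4galnt1 and Ugcg were then called higher, and B4galt6 was no longer called. Changes of at least 2-fold were called higher in 6 and lower in 6 of the 34 tested members, and in 5.5% and 8.71% of all tested genes. The 6 higher include Neu4 and Gcnt4, whose rises chose the set, so nothing is read from these counts either. The median log2 fold change of the 34 tested members was 0.07, and that of all tested genes was 0.01. The former was the same with 3 reads set for Gcnt1 over both Phf8 shRNA libraries together. The median absolute log2 fold change was 0.53 over the tested members and 0.32 over all tested genes. The former includes the genes that chose the set, and nothing is read from the difference. Of the tested members, 30 passed the filter in both groups. Neu4 and St8sia3 passed it through the Phf8 shRNA libraries and Gcnt1 and B3gnt2 through the control shRNA libraries, so these 4 could pass only by being higher in that group.

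**Figure D1:**
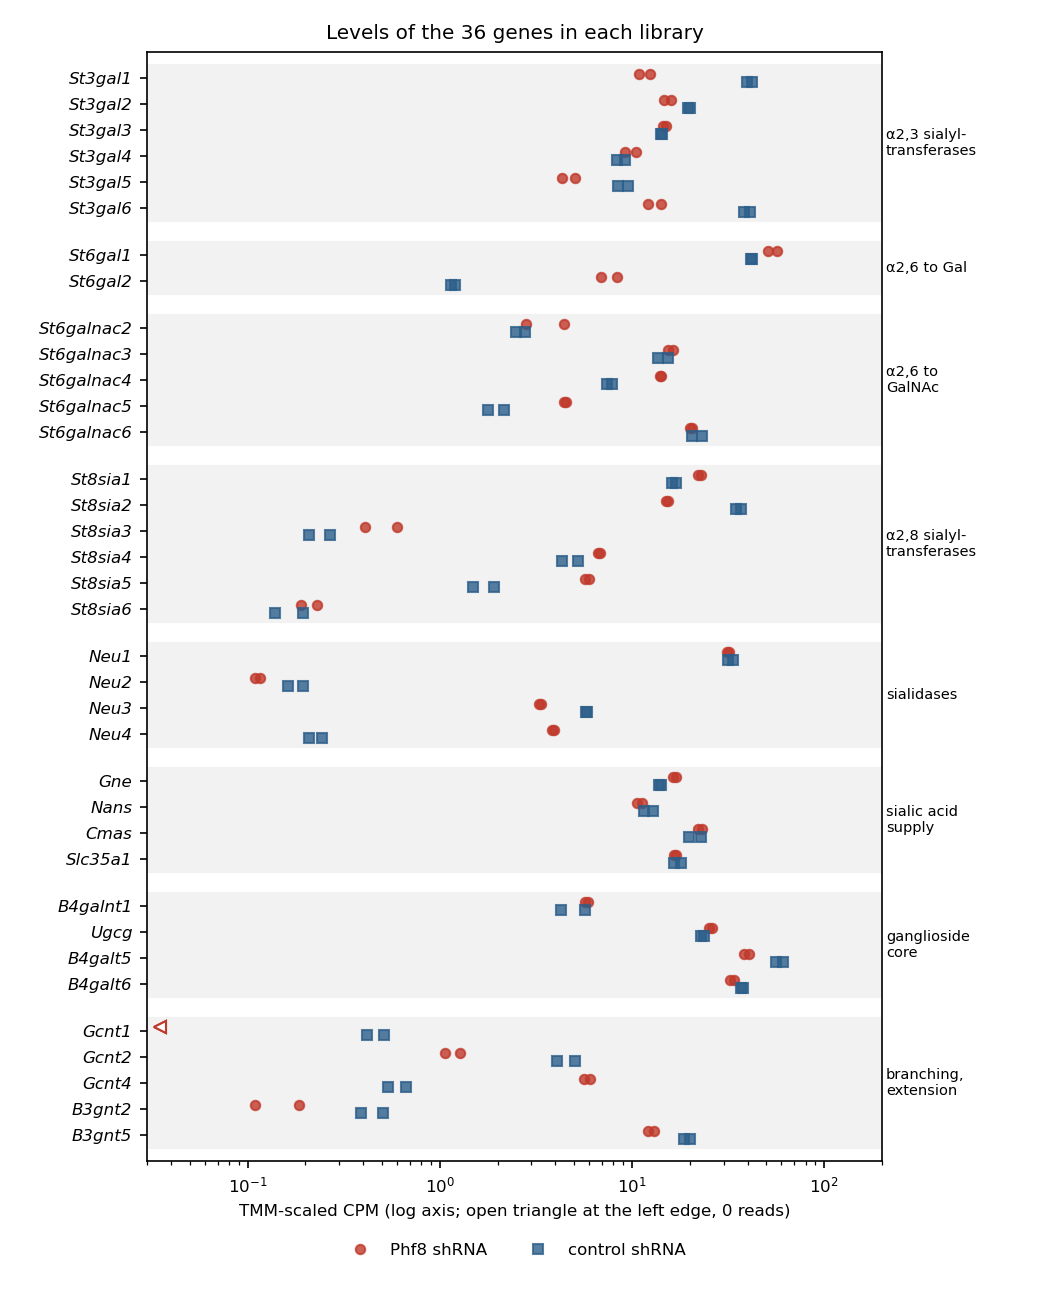
Level of each of the 36 genes in each library (TMM-scaled CPM, log axis), grouped by role, with circles for the 2 Phf8 shRNA and squares for the 2 control shRNA libraries. Gcnt1 had 0 reads in both Phf8 shRNA libraries (open triangle at the edge), and Neu4 lies near 3.9 CPM with Phf8 shRNA and near 0.2 CPM with control shRNA.

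The DNA just before the starts of the 3 genes that rose most and of 3 that fell, the largest falls with an entry in the table, is shown to let the base composition of these regions be compared. The sequences are RefSeq's (build GRCm38.p6, the assembly of mm10), 5′ to 3′ on the gene's strand, up to 250 bases before the most upstream start, shortened where an annotated exon begins earlier, with CG dinucleotides in capitals. Neu4 lies at chr1:94020243-94020450 (plus strand), Gcnt4 at chr13:96924094-96924343 (plus), St6gal2 at chr17:55445132-55445381 (plus), Gcnt1 at chr19:17372845-17373094 (minus), Gcnt2 at chr13:40859518-40859753 (plus) and St3gal6 at chr16:58524254-58524503 (minus).
Neu4: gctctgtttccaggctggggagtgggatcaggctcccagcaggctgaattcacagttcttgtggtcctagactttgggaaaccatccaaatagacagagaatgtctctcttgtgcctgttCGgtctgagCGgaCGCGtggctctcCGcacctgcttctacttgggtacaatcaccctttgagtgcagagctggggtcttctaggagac
Gcnt4: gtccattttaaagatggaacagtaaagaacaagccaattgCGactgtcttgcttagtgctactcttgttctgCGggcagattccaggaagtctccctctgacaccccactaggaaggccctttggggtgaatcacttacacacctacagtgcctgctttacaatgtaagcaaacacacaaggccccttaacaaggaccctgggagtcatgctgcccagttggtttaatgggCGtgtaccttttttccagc
St6gal2: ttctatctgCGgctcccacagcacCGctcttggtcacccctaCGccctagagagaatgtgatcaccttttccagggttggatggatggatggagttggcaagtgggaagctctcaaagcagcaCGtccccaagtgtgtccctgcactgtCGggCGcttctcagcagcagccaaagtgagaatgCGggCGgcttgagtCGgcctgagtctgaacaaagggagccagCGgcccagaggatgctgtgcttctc
Gcnt1: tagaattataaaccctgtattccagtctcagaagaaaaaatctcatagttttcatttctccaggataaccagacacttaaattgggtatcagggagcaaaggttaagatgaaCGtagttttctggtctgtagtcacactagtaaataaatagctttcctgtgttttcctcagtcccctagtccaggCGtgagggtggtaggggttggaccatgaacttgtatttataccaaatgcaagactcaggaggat
Gcnt2: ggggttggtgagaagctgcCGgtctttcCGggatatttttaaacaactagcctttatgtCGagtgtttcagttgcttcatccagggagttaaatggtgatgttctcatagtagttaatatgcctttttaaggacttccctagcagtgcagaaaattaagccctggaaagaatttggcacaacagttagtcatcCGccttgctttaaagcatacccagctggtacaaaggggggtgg
St3gal6: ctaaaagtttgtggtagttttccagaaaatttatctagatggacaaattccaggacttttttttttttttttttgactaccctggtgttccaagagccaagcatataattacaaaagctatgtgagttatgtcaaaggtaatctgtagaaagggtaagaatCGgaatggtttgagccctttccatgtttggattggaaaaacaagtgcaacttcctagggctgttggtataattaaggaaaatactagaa
The windows of Neu4, Gcnt4 and St6gal2 held 5, 3 and 10 CG dinucleotides over the full 250 bases, and those of Gcnt1, Gcnt2 and St3gal6 held 2, 5 and 1. The median over the windows of 27025 genes was 6, and over the 27 of the 36 genes with an entry it was 11. The 27025 were not limited to genes tested here, so nothing is read from members against them, here or for the letters below. The 8 matched genes that rose had a median of 8 (3 to 19), the 9 that fell a median of 7 (1 to 31), and the 8 that did not pass a median of 14.5 (2 to 43), so the ranges of the 3 groups overlapped. The letters GGGCGG, searched on both strands and overlapping CG, were in the windows of 16 of the 27 genes and of 33.0% of all genes, with 4 of the 8 that rose and 6 of the 9 that fell. CAGCTG was in 4 of 27 and in 12.7% of all, TGANTCA in 2 of 27 (Gcnt4 and Neu1) and in 6.85% of all, and TATAAA in 2 of 27 (Gcnt1 and Slc35a1) and in 13.0% of all, each on either strand. St3gal1, St3gal2, St6galnac2, St6galnac5, St8sia3, St8sia5, Nans, B4galnt1 and B4galt6 had no entry.

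Sialyltransferases that make α2,3 bonds included 4 that fell and 0 that rose, and 2 did not pass. Of all tested genes, 27.3% were lower and 24.8% higher, and nothing is read from this count or from those of the other roles. St3gal1, which caps core 1 O-glycans (ENSMUSG00000013846, minus strand of chromosome 15 from 67102875 to 67176830 in mm10), stood at 12.4 and 10.9 CPM in Phf8 shRNA libraries and at 42.1 and 39.6 CPM in control shRNA libraries. Both Phf8 shRNA libraries lay below both control libraries, and the difference was 3.50-fold (log2 fold change -1.81 ± 0.07 SE). St3gal6, which acts on N-acetyllactosamine ends (chromosome 16, 58468125 to 58524243), stood at 12.1 and 14.2 CPM with Phf8 shRNA and at 38.1 and 41.1 CPM with control shRNA. It fell 3.02-fold with no overlap of the groups. Its exons overlap the opposite-strand gene Dcbld2 over 26.0% of their length, and Dcbld2 averaged 32.7 ± 1.07 CPM with Phf8 shRNA and 47.0 ± 0.328 CPM with control shRNA (SD, n = 2 each). No source used here gives the strand option of the counting, so reads from overlaps of this kind cannot be told apart, here and for the genes below.

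St3gal5, the GM3 synthase that makes the first ganglioside of the pathway, averaged 4.70 ± 0.519 CPM with Phf8 shRNA and 8.97 ± 0.758 CPM with control shRNA (SD, n = 2 each). It fell 1.90-fold. St3gal2, which completes complex gangliosides and O-glycans, fell 1.30-fold to 14.7 and 15.9 CPM with Phf8 shRNA, against 19.7 and 20.1 CPM with control shRNA. St3gal3, which acts on N-acetyllactosamine ends and is among the 6 most abundant members per exonic length, was at 15.1 and 14.5 CPM with Phf8 shRNA and at 14.3 and 14.2 CPM with control shRNA. That is a log2 fold change of 0.06 ± 0.08 (SE), which did not pass. Its groups did not overlap, nor did those of Nans and Ugcg, which did not pass either, so groups without overlap were not particular to called genes. St3gal4 had a log2 fold change of 0.17 ± 0.09 (SE) with overlapping groups, and it passed as higher without Phf8 shRNA replicate 2 (0.26).

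Levels per exonic length are given as CPM per kilobase of exon, over all annotated exons of a gene merged. Which of its transcripts the cells made was not measured, so comparisons between genes on this scale are rough. Summed on it, the 6 genes of the α2,3 family came to 17.4 ± 0.404 with Phf8 shRNA and to 27.9 ± 0.196 with control shRNA (SD, n = 2 each). That is a ratio of 0.623. St3gal1 and St3gal6 made up 10.2% and 11.1% of the sum in Phf8 shRNA replicate 1 and 9.28% and 13.4% in Phf8 shRNA replicate 2, against 22.1% and 22.2% in control shRNA replicate 1 and 20.6% and 23.8% in control shRNA replicate 2. St3gal3 held the largest share with Phf8 shRNA, 30.9% and 30.7%, against 18.6% and 18.3% with control shRNA.

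Both genes for α2,6 bonds to galactose rose. St6gal1, which caps N-glycans, was the member with the highest level per exonic length in Phf8 shRNA libraries. It stood at 57.1 and 51.2 CPM with Phf8 shRNA and at 41.8 and 42.0 CPM with control shRNA, with a log2 fold change of 0.37 ± 0.06 (SE). St6gal2, its relative with a narrower tissue range that includes brain (chromosome 17, 55445382 to 55514581), stood at 6.89 and 8.39 CPM with Phf8 shRNA and at 1.20 and 1.15 CPM with control shRNA. The groups were far apart, and St6gal2 rose 6.45-fold (log2 fold change 2.69 ± 0.16 SE). Even so it supplied 7.45% and 9.85% of the summed level of the pair with Phf8 shRNA and 1.88% and 1.79% with control shRNA. The sum itself was 12.5 and 11.6 CPM per kilobase with Phf8 shRNA and 8.66 and 8.70 with control shRNA, a ratio of 1.39.

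**Figure D2:**
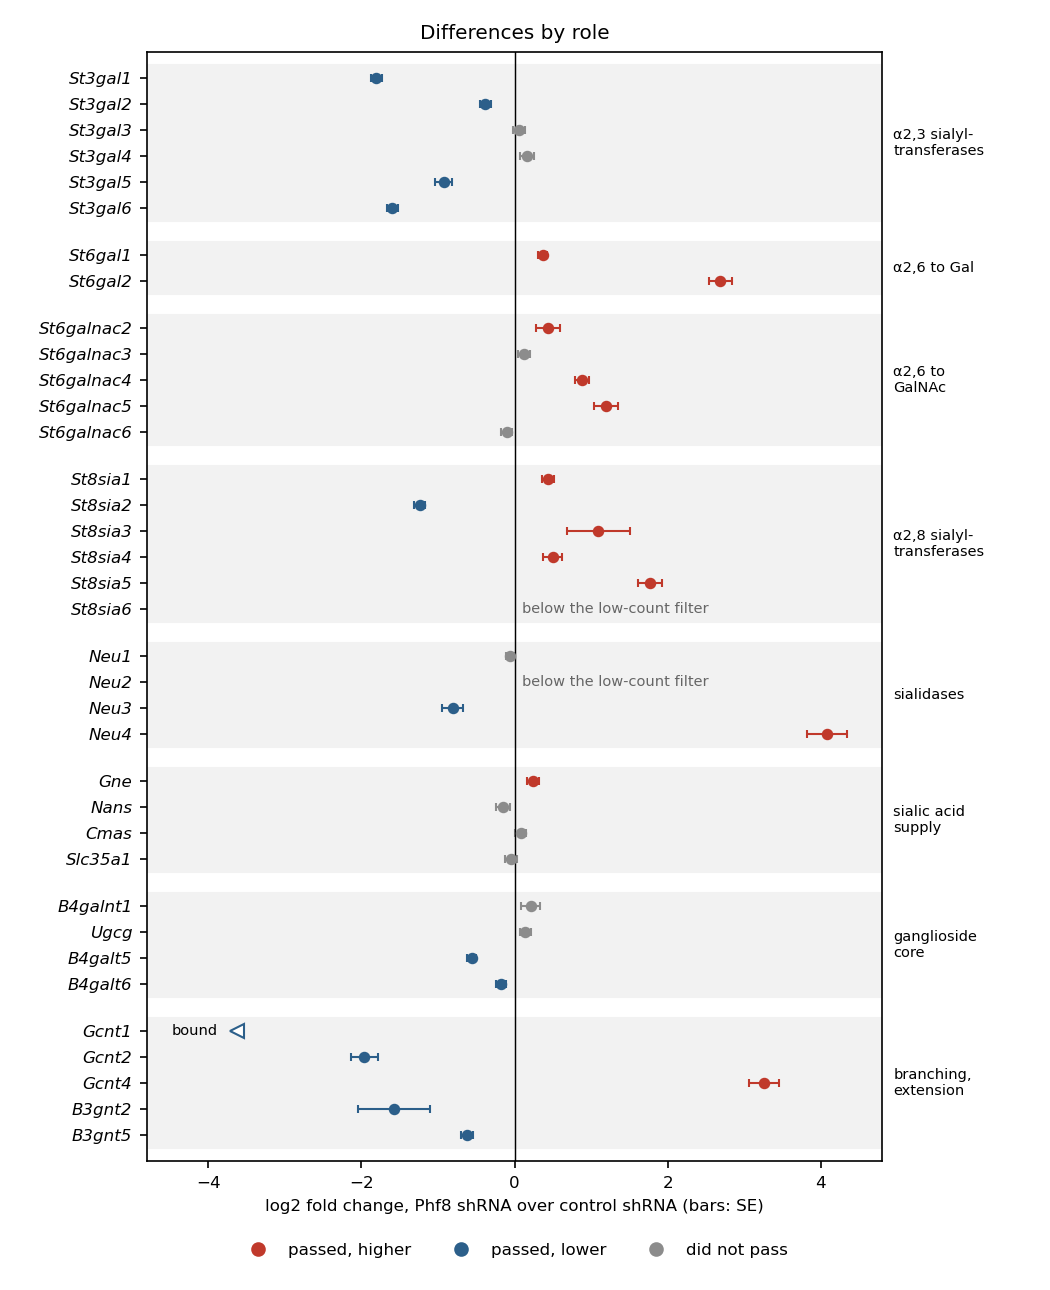
Log2 fold change of each gene, Phf8 shRNA over control shRNA, with its SE (bars), grouped by role and coloured by whether it passed an adjusted p under 0.05 in the fit across all genes. Neu4, Gcnt4 and St6gal2 lie furthest to the right at 4.08, 3.26 and 2.69. Gcnt1 is drawn at -3.63, its value with 3 reads set over both Phf8 shRNA libraries together.

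Of the 5 genes for α2,6 bonds to N-acetylgalactosamine, 3 rose, 0 fell and 2 did not pass. St6galnac5, which acts on gangliosides (chromosome 3, 152817081 to 152982246), stood at 4.56 and 4.44 CPM with Phf8 shRNA and at 1.78 and 2.15 CPM with control shRNA. It rose 2.29-fold and the groups did not overlap. St6galnac4, which adds a second sialic acid to sialylated O-glycans and related chains, averaged 14.1 ± 0.137 CPM with Phf8 shRNA and 7.67 ± 0.353 CPM with control shRNA (SD, n = 2 each), a 1.84-fold rise. St6galnac2, an O-glycan enzyme, was at 2.80 and 4.41 CPM with Phf8 shRNA and at 2.77 and 2.49 CPM with control shRNA. The first Phf8 shRNA library lay close to the controls, and the log2 fold change of 0.43 became 0.09 without Phf8 shRNA replicate 2 and 0.37 without control shRNA replicate 2, and passed under neither. A second identifier with the same symbol had 6 and 8 reads with Phf8 shRNA and 11 and 3 with control shRNA and was not added. St6galnac3 and St6galnac6, which act on gangliosides and other short sialylated chains, had log2 fold changes of 0.12 and -0.10 that did not pass, and their groups overlapped.

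Genes for α2,8 bonds, which build chains of sialic acid, were divided. St8sia2, a polysialyltransferase (chromosome 7, 73939119 to 74013690), stood at 15.0 and 15.4 CPM with Phf8 shRNA and at 37.0 and 34.8 CPM with control shRNA. It fell 2.36-fold (log2 fold change -1.24 ± 0.07 SE). The other polysialyltransferase gene, St8sia4, rose 1.41-fold, with 6.66 and 6.84 CPM with Phf8 shRNA and 4.35 and 5.23 CPM with control shRNA. Because St8sia4 is much lower per exonic length, the sum of both was 3.16 ± 0.0697 CPM per kilobase with Phf8 shRNA and 6.90 ± 0.264 with control shRNA (SD, n = 2 each). St8sia4 made up 10.7% and 10.6% of it with Phf8 shRNA and 3.05% and 3.88% with control shRNA. These shares depend on the scale, as the annotated exons of St8sia4 cover 20091 bases and those of St8sia2 5384.

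St8sia5, which makes gangliosides with chains of sialic acid (chromosome 18, 77185839 to 77258771), stood at 5.97 and 5.69 CPM with Phf8 shRNA and at 1.92 and 1.49 CPM with control shRNA. It rose 3.41-fold (log2 fold change 1.77 ± 0.15 SE), and both Phf8 shRNA libraries lay above both control libraries. St8sia1, the GD3 synthase, whose product is a ganglioside of neural stem cells and glial progenitors, rose 1.36-fold, to 22.0 and 22.9 CPM with Phf8 shRNA, against 16.2 and 16.9 CPM with control shRNA. St8sia3 was close to the limit of detection, with 26 and 15 reads with Phf8 shRNA and 9 and 11 with control shRNA. Its log2 fold change of 1.10 ± 0.41 (SE) no longer passed without control shRNA replicate 1 (0.91), control shRNA replicate 2 (1.29) or Phf8 shRNA replicate 1 (0.78). St8sia6, under the filter, had 10 and 7 reads with Phf8 shRNA and 6 and 8 with control shRNA, a ratio of 1.28 (95% exact binomial counting interval 0.593 to 2.80). Summed over the 19 sialyltransferase genes, the level was 45.7 ± 0.976 CPM per kilobase with Phf8 shRNA and 53.7 ± 0.494 with control shRNA (SD, n = 2 each), a ratio of 0.850.

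**Figure D3:**
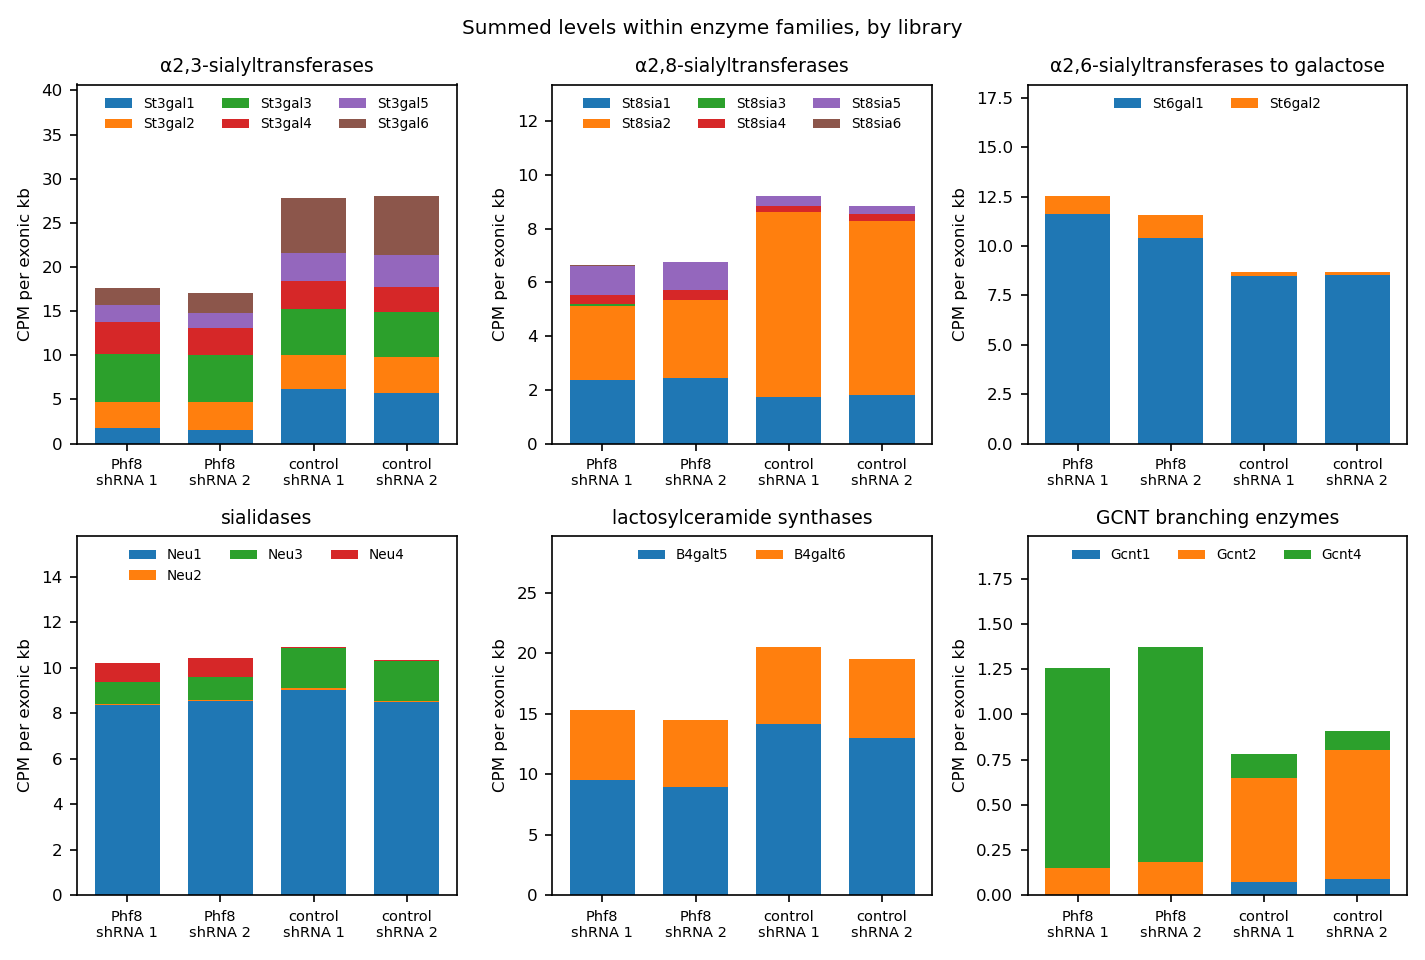
Summed level per exonic kilobase (CPM per kilobase) of 6 enzyme families in each library, stacked by gene. The α2,3 family sums to 17.7 and 17.1 in Phf8 shRNA libraries and to 27.8 and 28.1 in control shRNA libraries, while the sialidase sums overlap between the groups. Gcnt4 replaces Gcnt2 as the largest GCNT share, which restates a rise that chose the set.

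Among the sialidases, Neu4 stood out in size, which is one of the values that chose the set. Neu4, an enzyme of intracellular membranes that can act on polysialic acid and on gangliosides (ENSMUSG00000034000, plus strand of chromosome 1, 94020451 to 94028334), had 166 and 144 reads in Phf8 shRNA libraries and 9 and 10 in control shRNA libraries. These are 3.84 and 3.92 CPM with Phf8 shRNA and 0.208 and 0.244 CPM with control shRNA. The read ratio adjusted for depth was 17.2 (95% exact binomial counting interval 10.8 to 28.9), and the log2 fold change was 4.08 ± 0.26 (SE). Beside this rise, 13 of 14 tested oligodendrocyte lineage markers and 7 of 8 tested neuron markers rose, against 24.8% of all tested genes. Whether the rise of Neu4 is linked to either list was not tested. Neu3, the ganglioside sialidase of the plasma membrane, fell 1.75-fold to 3.28 and 3.35 CPM with Phf8 shRNA, against 5.85 and 5.77 CPM with control shRNA. Neu1, the lysosomal sialidase and the third most abundant member per exonic length, was at 31.2 and 31.9 CPM with Phf8 shRNA and at 33.7 and 31.6 CPM with control shRNA (log2 fold change -0.05 ± 0.06 SE), and its groups overlapped. Neu2, the cytosolic sialidase, had 5 and 4 reads with Phf8 shRNA and 7 and 8 with control shRNA.

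Per exonic length, Neu1 made up 81.8% and 81.9% of the sialidase sum with Phf8 shRNA and 82.9% and 82.0% with control shRNA. Neu4 contributed 8.11% in each Phf8 shRNA library, against 0.412% and 0.510% with control shRNA, and Neu3 9.62% in each Phf8 shRNA library, against 16.1% and 16.7% with control shRNA. The sum was 10.2 and 10.4 CPM per kilobase with Phf8 shRNA and 10.9 and 10.3 with control shRNA. It did not separate the groups, and the ratio of its means was 0.973 with TMM scaling and 1.03 with upper-quartile scaling.

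The genes that supply activated sialic acid changed little. Gne, the enzyme of the first committed step, stood at 17.0 and 16.3 CPM with Phf8 shRNA and at 13.9 and 14.2 CPM with control shRNA. Its log2 fold change of 0.25 ± 0.08 (SE) passed, but not without control shRNA replicate 1 (0.22). Nans, the sialic acid synthase, Cmas, which activates sialic acid, and Slc35a1, which carries it into the Golgi, had log2 fold changes of -0.15, 0.08 and -0.05 that did not pass. Slc35a1, among the 6 most abundant members per exonic length, stood at 16.6 and 16.9 CPM with Phf8 shRNA and at 16.5 and 18.0 CPM with control shRNA. The SE of these 4 log2 fold changes lay between 0.07 and 0.09. Exons of Nans overlap the opposite-strand gene Trim14, which had 4 and 5 reads with Phf8 shRNA and 5 in each control library, over 29.6% of their length.

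In the ganglioside core, 2 genes fell, by small amounts, and 2 did not pass. Ugcg, which starts the pathway as glucosylceramide synthase, was at 25.1 and 26.2 CPM with Phf8 shRNA and at 22.8 and 23.7 CPM with control shRNA (log2 fold change 0.14 ± 0.07 SE). The next step, lactosylceramide synthesis, is shared by B4galt5 and B4galt6. B4galt5, the member with the highest mean level per exonic length, stood at 40.8 and 38.4 CPM with Phf8 shRNA and at 61.0 and 56.0 CPM with control shRNA, a 1.47-fold fall. B4galt6 stood at 33.8 and 32.4 CPM with Phf8 shRNA and at 36.8 and 37.9 CPM with control shRNA. Its log2 fold change of -0.17 no longer passed with upper-quartile scaling (-0.09), without control shRNA replicate 2 (-0.15) or without Phf8 shRNA replicate 2 (-0.14). The pair summed to 14.9 ± 0.559 CPM per kilobase with Phf8 shRNA and to 20.0 ± 0.687 with control shRNA (SD, n = 2 each). B4galnt1, which adds the sugar that leads to GM2 and the complex gangliosides, was at 5.90 and 5.67 CPM with Phf8 shRNA and at 5.73 and 4.25 CPM with control shRNA. The groups overlapped, and the log2 fold change of 0.21 ± 0.12 (SE) became 0.43 and passed without control shRNA replicate 1. Exons of B4galnt1 overlap the opposite-strand gene Slc26a10 over 20.7% of their length.

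Of the 5 genes of branching and extension, Gcnt4 was higher and 4 were lower. Gcnt4 was one of the genes whose rise chose the set, and Gcnt1 and B3gnt2 passed the low-count filter only through the control shRNA libraries, so nothing is read from this count. Gcnt4, an enzyme of core 2 branches on O-glycans (ENSMUSG00000091387, plus strand of chromosome 13, 96924689 to 96950906) and the other gene whose rise chose the set, had 243 and 222 reads with Phf8 shRNA and 29 and 22 with control shRNA. That is 5.62 and 6.05 CPM with Phf8 shRNA and 0.670 and 0.538 CPM with control shRNA, a 9.57-fold difference (log2 fold change 3.26 ± 0.19 SE). Its exons overlap the opposite-strand gene Gm48597 over 10.5% of their length, and Gm48597 had 0 reads in all 4 libraries.

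Gcnt1, the widely expressed core 2 enzyme (chromosome 19, 17326141 to 17372844), had 0 reads in both Phf8 shRNA libraries and 18 and 21 in the control shRNA libraries. With a limit of 3 reads over both Phf8 shRNA libraries it was at least 12.3-fold lower. Gcnt2, which makes the branches of the I antigen on polylactosamine (chromosome 13, 40859754 to 40960892), stood at 1.06 and 1.28 CPM with Phf8 shRNA and at 4.07 and 5.04 CPM with control shRNA, a 3.89-fold fall. Opposite-strand genes overlap its exons over 11% of their length. The 3 GCNT genes summed to 1.31 ± 0.0812 CPM per kilobase with Phf8 shRNA and to 0.845 ± 0.0905 with control shRNA (SD, n = 2 each). Gcnt4 took 88.0% and 86.7% of that sum with Phf8 shRNA and 16.9% and 11.6% with control shRNA, and Gcnt2 took the remainder with Phf8 shRNA and 73.9% and 78.6% with control shRNA. The higher sum and the larger Gcnt4 share restate the rise of Gcnt4, which chose the set, so nothing is read from either.

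B3gnt5, which starts the lacto-series of glycolipids, stood at 12.2 and 13.1 CPM with Phf8 shRNA and at 18.7 and 20.2 CPM with control shRNA, a 1.54-fold fall. B3gnt2, an enzyme that extends polylactosamine chains, had 8 and 4 reads with Phf8 shRNA and 22 and 16 with control shRNA, a ratio of 0.332 (95% exact binomial counting interval 0.158 to 0.650). Exons of 2 genes on the same strand cover 65.5% of its exonic length, so its level is uncertain. Its log2 fold change of -1.57 no longer passed without control shRNA replicate 1 (-1.38) or Phf8 shRNA replicate 2 (-1.27).

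Genes of neighbouring steps, from lists that hold none of the 36, also went in both directions. Over all tested genes 24.8% were higher and 27.3% lower, and nothing is read from the counts of these lists against those shares. Among 17 tested glycosphingolipid enzymes and helpers, 5 rose and 8 fell, with a median log2 fold change of -0.03. Ugt8a, which makes the galactosylceramide of myelin, rose to 13.8 and 12.8 CPM with Phf8 shRNA, against 5.55 and 3.98 CPM with control shRNA. Hexa, a lysosomal enzyme that removes a sugar from GM2, fell to 49.9 and 48.1 CPM with Phf8 shRNA, against 102 and 99.7 CPM with control shRNA. Arsa, the lysosomal sulfatase that acts on sulfatide, B3galnt1, the globoside synthase, and Ctsa, the protective protein of Neu1 in the lysosome, fell with log2 fold changes of -0.87, -0.78 and -0.72. Each of the 5 had a Benjamini-Hochberg adjusted p of 7.05e-10 or less (quasi-likelihood F test of edgeR). Exons of Hexa, Arsa and Ctsa overlap opposite-strand genes over 12.8%, 18.8% and 17.4% of their length.

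Among 27 tested enzymes and transporters that build the antennae of N- and O-glycans, 5 rose and 14 fell (median log2 fold change -0.12), and 3 rose without control shRNA replicate 1 or without control shRNA replicate 2. Mgat5b, a branching enzyme of brain, rose to 9.85 and 10.0 CPM with Phf8 shRNA, against 4.42 and 4.62 CPM with control shRNA. The mannosidase genes Man1a and Man1c1, which trim N-glycans before branching, fell with log2 fold changes of -1.48 and -1.42, Fut8, which adds core fucose, with -0.97, and B4galt1, a galactosyltransferase, with -0.95. Of 13 tested genes of sialic acid and UDP-sugar supply, 1 rose and 9 fell, with a median of -0.37. Gfpt2, of the first step of hexosamine synthesis, fell by 1.58 on the log2 scale. Siae and Casd1, which remove and add acetyl groups on sialic acid, had log2 fold changes of -0.81 and -0.55, and Npl, which breaks sialic acid down, had -0.48. Exons of Siae overlap opposite-strand genes over 10.8% of their length. The 9 genes named from these 2 lists had Benjamini-Hochberg adjusted p-values of 6.8e-09 or less (quasi-likelihood F test of edgeR).

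Of 16 carriers and readers of sialic acid, 5 passed the filter, of which 2 rose and 3 fell. Ncam1, the main carrier of polysialic acid, rose 1.72-fold to 247 and 248 CPM with Phf8 shRNA, against 146 and 142 CPM with control shRNA. Of the polysialyltransferase genes, St8sia2 fell and St8sia4 rose, and polysialic acid itself was not measured. Nrp2, a guidance receptor that can carry polysialic acid, fell to 26.7 and 27.6 CPM with Phf8 shRNA, against 166 and 160 CPM with control shRNA (log2 fold change -2.59 ± 0.06 SE). Mag, a myelin protein that binds sialylated gangliosides and is also one of the oligodendrocyte lineage markers, rose to 2.20 and 2.42 CPM with Phf8 shRNA, against 0.254 and 0.196 CPM with control shRNA. Cd24a and Cadm1, surface proteins that carry sialylated glycans, fell with log2 fold changes of -0.96 and -0.16. The call of Cadm1 was lost with upper-quartile scaling (-0.08), without control shRNA replicate 2 (-0.15) and without Phf8 shRNA replicate 2 (-0.10). Cadm1 had the largest Benjamini-Hochberg adjusted p of the 5, 0.0106 (quasi-likelihood F test of edgeR). The other Siglec genes and the selectins were under the filter.

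**Figure D4:**
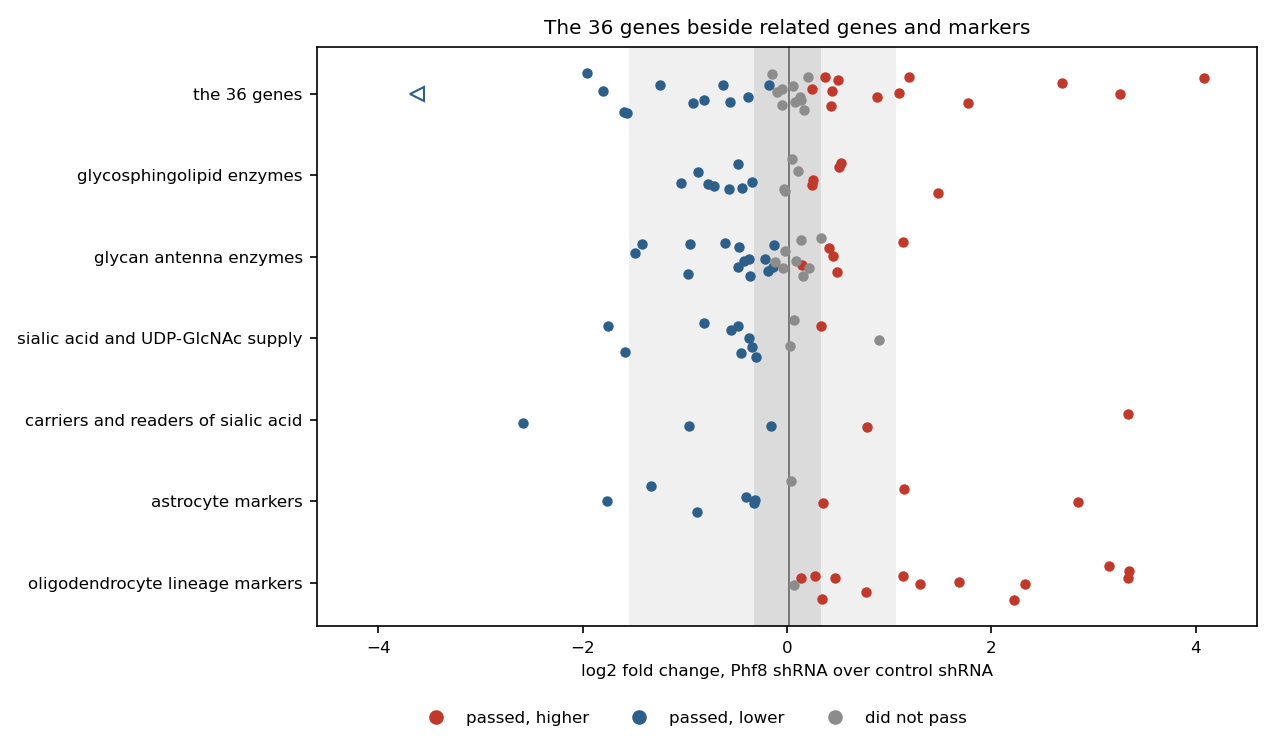
Log2 fold change (Phf8 shRNA over control shRNA) of each tested gene among the 36, in 4 lists of related genes and in 2 marker lists, with grey bands for the middle 50% and 90% of all 21042 tested genes. Some of the 36 genes lie beyond each end of the wider band, which runs from -1.53 to 1.06. Neu4 and Gcnt4, the members furthest above it, chose the set, so nothing is read from this. The lowest oligodendrocyte lineage marker lies at 0.07.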

How the data were processed

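Total RNA was depleted of ribosomal RNA and sequenced from stranded libraries, per the labels' protocols. Per the submitters' processing notes, HISAT2, HTSeq and DESeq2 were used with build mm10. No source used here gives their versions, settings, strand option or annotation release. The deposited files hold a whole-number count of reads for each of 55421 genes, taken as raw counts because library totals differ (36839530 to 44724759 reads). The number of reads sets the precision of a level, and intervals cover counting error only. The limit used for Gcnt1 covers that of its Phf8 shRNA reads only.

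Identifiers were joined to symbols (55154 had one) and to GENCODE M21 on mm10 for exonic lengths and overlaps. A symbol with more than 1 identifier was given to the one with most reads. Genes were kept by filterByExpr, scaled by TMM and tested with the two-sided quasi-likelihood F test of edgeR 4.0.16 (R 4.3.3) on all 4 libraries without covariates, with Benjamini-Hochberg adjustment over all genes tested and a threshold of 0.05. TMM rests on a majority of unchanged genes, and 52.1% of the tested genes were called here. The fit was tested on simulated counts with 200 changed genes. That is a far smaller share than was called here, so the simulation does not test the scaling for these data. The design text speaks of biological replicates without naming separate cultures, so p-values measure the spread between these libraries, which may be technical. That spread was small (a common biological coefficient of variation of 3.64%).

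The members and the lists were chosen with earlier results of these data known. Genes named are Phf8, the members (in full where the absolute log2 fold change is at least 1 or the level is among the 6 highest per exonic length), and up to 5 called genes of each related list with the largest change, at least 1 CPM in a group and no overlap of the groups. A gene of the supply list that this rule names is not reported here. Alternatives were other scalings, DESeq2 1.42.0, limma-voom (limma 3.58.1), other filters, a replicate block, leaving out each library, a fit without mitochondrial genes and the 20 genes with most reads, an assumed spread and stricter thresholds. Libraries with the same replicate number did not deviate together, which cannot show whether the numbers pair them.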

Additional observations from a re-analysis of the deposited data

How the results depend on the processing

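Of the 24 members that passed, 19 passed in the same direction under each alternative scaling, tool, filter, replicate block and left-out library, and 12 also with a biological coefficient of variation set to 0.2. The same share over all called genes is not given here. These counts include Neu4 and Gcnt4, which chose the set, and nothing is read from them about the members as a group. DESeq2's own test no longer called St6galnac2, St8sia3, Gne, B4galt6 and B3gnt2. No called member changed direction under any alternative. With the coefficient set to 0.2, 6 members were higher and 7 lower, over all genes 1262 and 2043, and Phf8 no longer passed (log2 fold change -0.30, Benjamini-Hochberg adjusted p = 0.639, likelihood ratio test of edgeR). The related lists then gave 1 higher and 2 lower glycosphingolipid genes, 1 higher and 4 lower antenna genes, and 0 higher and 3 lower supply genes. With at least 1.5-fold required, 7 members were higher, and St3gal1, St3gal5, St3gal6, St8sia2, Neu3, Gcnt1, Gcnt2, B3gnt2 and B3gnt5 were lower. Over all genes 2531 were then higher and 2917 lower. That minimum left 1 higher and 4 lower glycosphingolipid genes, 1 higher and 5 lower antenna genes, and 0 higher and 3 lower supply genes. The count of higher antenna genes was 3 with the library size alone, 8 with upper-quartile scaling and 3 at an adjusted p under 0.01. The cause was not tested. Upper-quartile scaling gave 6640 higher and 4811 lower calls over all genes, against 5225 and 5740 with TMM, and 17 higher members. The median log2 fold change of the members was 0.0159 with the library size alone and 0.1512 with upper-quartile scaling.

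Leaving out 1 library gave between 3 and 5 higher antenna genes and a median log2 fold change of the members between 0.0183 and 0.0881. In these fits the lone library of a group is assumed to vary like the others. The replicate number as a block gave 12 higher and 12 lower members and changed no call among the members. Libraries with the same number did not deviate together (r = 0.00905 over 15680 genes, which are not independent). With so few libraries this is a single contrast, so it cannot show whether the numbers pair them. The few reads of Neu2, St8sia6, St8sia3, B3gnt2 and Gcnt1 limit what can be said of these genes.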

Other observations

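Some of the 36 genes are neighbours. St6galnac4 and St6galnac6 lie on the same strand of chromosome 2 with 10 bases between their annotated ends, and their log2 fold changes were 0.88 ± 0.09 and -0.10 ± 0.07 (SE). St6galnac3 and St6galnac5 lie on the same strand of chromosome 3, 216019 bases apart, with log2 fold changes of 0.12 and 1.20. Cmas and St8sia1 lie on opposite strands of chromosome 6, 45830 bases apart, with 0.08 and 0.44. With TMM scaling the gene with the larger value in each pair passed the test and the other did not, but with upper-quartile scaling St6galnac3 (0.21) and Cmas (0.16) passed as well. The differences within pairs were not tested.

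The order of the 35 genes that can be ranked per exonic length differed between the groups. St6gal1 was at the top in Phf8 shRNA libraries and B4galt5 in control shRNA libraries. St3gal1 ranked 21 with Phf8 shRNA and 8 with control shRNA, St3gal6 ranked 18 with Phf8 shRNA and 7 with control shRNA, and St8sia2 ranked 12 with Phf8 shRNA and 5 with control shRNA. In the other direction, Gcnt4 ranked 23 with Phf8 shRNA and 30 with control shRNA, and Neu4 ranked 27 with Phf8 shRNA and 33 with control shRNA, so the gene with the largest rise remained among the less abundant members. The shifts of Gcnt4 and Neu4 restate the rises that chose the set.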
